A study of Mus musculus with 9 samples.

Results

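The genes described here fold proteins in the endoplasmic reticulum (ER) or signal when folding fails there. A list of 37 such genes was drawn up: chaperones of the ER lumen, disulfide isomerases, lectin chaperones, prolyl isomerases and other proteins that fold collagen, parts of ER import and degradation, the 3 stress sensors, and stress transcription factors with their targets. Each gene was read at the probe set that carries only its symbol and has the highest mean over all arrays, which gave 36 genes of 19935 measured that way. Fkbp10 is not analysed here, and Ero1l was found under its current symbol, Ero1a. The values are log2 expression values from Affymetrix arrays, 1 array per heart, so that a difference of 1 is a doubling. RNA came from the right ventricle with the septum of adult mice, of mixed C57BL/6 background. The 4 Ezh2-deficient hearts had the genotype Ezh2f/f;Mef2cAHF::Cre, in which a Mef2c enhancer of the anterior heart field drives Cre, and the 5 wild-type hearts had the genotype Ezh2f/f and no Cre. For these hearts the titles say f/wt and the genotype label f/f, and nothing at hand decides between them. The Mef2c enhancer is known for its activity in embryonic progenitors of the right ventricle, septum and outflow tract. The tissue therefore also holds cells in which Ezh2 was not deleted, and an effect of Cre itself cannot be told apart from loss of Ezh2.

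Proteins bound for secretion or for membranes enter the ER through the Sec61 channel and are folded there by the HSP70 chaperone BiP, which Hspa5 encodes, and by its helpers. When unfolded proteins accumulate, the sensors IRE1 (Ern1), PERK (Eif2ak3) and ATF6 are activated. IRE1 splices the mRNA of Xbp1, PERK favours translation of Atf4, and ATF6 is cut to release a transcription factor, and these raise the mRNAs of chaperones, degradation factors and, on prolonged stress, Ddit3 (CHOP). The activation steps are splicing, translation and cleavage, which 1 expression value per gene does not show, whereas the mRNAs of the target genes are what an array reads. In the heart, muscle cells use this system for membrane and calcium-handling proteins, and fibroblasts use it to make collagen, which needs its own chaperones.

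Some of the promoters, 12 of those searched, hold letters through which this response is known to act. Promoter sequences, 250 bases before to 50 bases after each annotated start, were taken from RefSeq (GRCm38.p6) and were at hand for 33 of the 36 genes. The ER stress response element, ERSE, has the letters CCAAT, then 9 bases of any kind, then CCACG. The CCAAT end is known to bind NF-Y, and the CCACG end ATF6 or XBP1. On either strand it stood in 7 of the 33 promoters (21.2%) and in 35 of 27025 promoters in the whole table (0.13%). The list was drawn up from genes of this response and their targets. For this element and those below, the shares are therefore not an independent check. The 8 matches are shown because the element is rare among promoters at large, with both ends in capitals and each sequence 5′ to 3′ on the strand that holds the element.
Calr at chr8:84847075-84847093, plus strand: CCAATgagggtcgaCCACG
Canx at chr11:50325800-50325818, minus strand: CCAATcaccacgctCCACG
Creld2 at chr15:88819520-88819538, minus strand: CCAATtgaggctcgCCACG
Dnajc3 at chr14:118937827-118937845, plus strand: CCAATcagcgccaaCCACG
Hsp90b1 at chr10:86705638-86705656, minus strand: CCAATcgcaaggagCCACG
Hsp90b1 at chr10:86705533-86705551, plus strand: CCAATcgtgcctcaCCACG
Hspa5 at chr2:34772025-34772043, plus strand: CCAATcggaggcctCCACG
Pdia6 at chr12:17266491-17266509, plus strand: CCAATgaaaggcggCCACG
Hsp90b1 holds 2 of them in opposite orientation. The shorter form ERSE-II, with ATTGG and CCACG set 1 base apart, was added after the promoters were searched. It was found in 2 of the 33 promoters (6.06%) and in 0.037% of all promoters.
Herpud1, ERSE-II, chr8:94386377-94386387, plus strand: ATTGGgCCACG
Dnajb11, ERSE-II, chr16:22857852-22857862, plus strand: ATTGGcCCACG
The letters TGATGNAA, a C/EBP-ATF response element (CARE) of the kind that ATF4 binds, shown whole in capitals, stood in 4 of the 33 promoters (12.1%), against 4.06% of all promoters.
Chac1, CARE, chr2:119351049-119351056, minus strand: TGATGCAA
Trib3, CARE, chr2:152344039-152344046, plus strand: TGATGTAA
Asns, CARE, chr6:7693225-7693232, minus strand: TGATGAAA
Herpud1, CARE, chr8:94386317-94386324, minus strand: TGATGCAA
The letters TGACGTGG, an element known to bind XBP1, were in 0 of the 33 promoters and in 0.607% of all. CCAAT alone was in 22 of the 33 (66.7%) and in 37.9% of all promoters. Every ERSE match also holds CCAAT, and every ERSE-II match holds it on the opposite strand.

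Stretches of 160 bases before the start are shown for Hspa5, the best known target of the response, and for Herpud1, whose value was farthest below wild type among the 36 genes. In the Hspa5 promoter (chr2:34771930-34772089, plus strand) the capitals mark the ends of the ERSE, which begins 65 bases before the start. In the Herpud1 promoter (chr8:94386269-94386428, plus strand) they mark the CARE, read on the opposite strand, and then the ends of the ERSE-II, which begins 52 bases before the start. A match to these letters is a description and does not show that a factor was bound.
Hspa5: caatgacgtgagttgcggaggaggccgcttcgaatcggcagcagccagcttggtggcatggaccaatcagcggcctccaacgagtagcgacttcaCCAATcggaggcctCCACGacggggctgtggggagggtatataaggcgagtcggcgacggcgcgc
Herpud1: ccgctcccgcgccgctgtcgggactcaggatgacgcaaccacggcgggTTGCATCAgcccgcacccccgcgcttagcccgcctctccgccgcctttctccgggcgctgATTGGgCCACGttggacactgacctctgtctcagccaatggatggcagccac

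**Figure D1:**
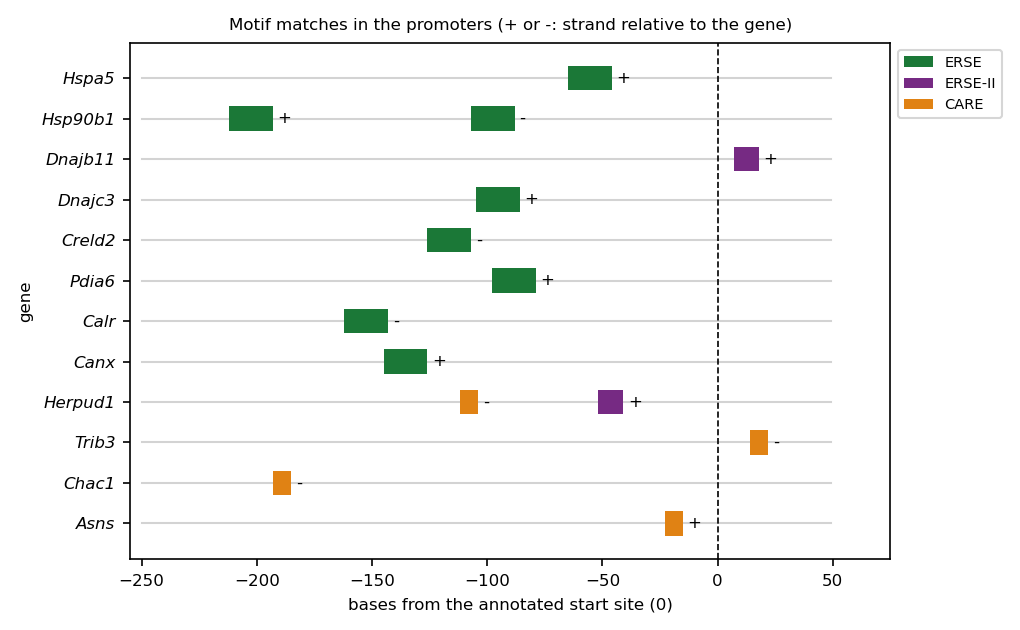
Matches to 3 stress elements in the promoters of the 12 genes that hold any of them, plotted by distance in bases from the annotated start site (dashed line); the grey line is the window searched, and + or - gives the strand relative to the gene. The ERSE matches all lie before the start, and Hsp90b1 has 2 of them.

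Between the groups no gene of the set passed the test. By limma with Benjamini-Hochberg adjustment over all 28815 probe sets, 0 of the 36 genes reached an adjusted p of 0.05, against 10 probe sets (0.0347%) in the whole table and 0.0451% of genes, and the lowest adjusted p in the set was 0.271, for Fkbp9. At an unadjusted p under 0.05 there were 9 genes (25%), against 11.5% of all genes in the same fit. The count was 4 without wild-type array 3, 5 without wild-type array 5 and 5 without wild-type arrays 4 and 5. For these refits the share of all genes is not given here, so the excess is known for the full fit alone. Of the 9, 6 had a higher mean in Ezh2-deficient hearts (Fkbp9, Edem1, Eif2ak3, Pdia3, Ppib and Crtap; 5.77% of all genes were higher at that level) and 3 a lower one (Chac1, Hsp90b1 and Herpud1; 5.78% of all genes). The groups did not overlap for Fkbp9, Edem1 and Eif2ak3, which were higher (2.1% of all genes), and for Chac1, which was lower (2.19%). Over the set, 26 of 36 genes had a higher mean, against 48.4% of all genes. The median log2 difference (Ezh2-deficient minus wild type) was 0.06, against -0.003 over all genes, and 34 of the 36 differences were under 0.25 in size. In these bulk samples fewer cells of a type and less RNA per cell cannot be told apart.

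**Figure D2:**
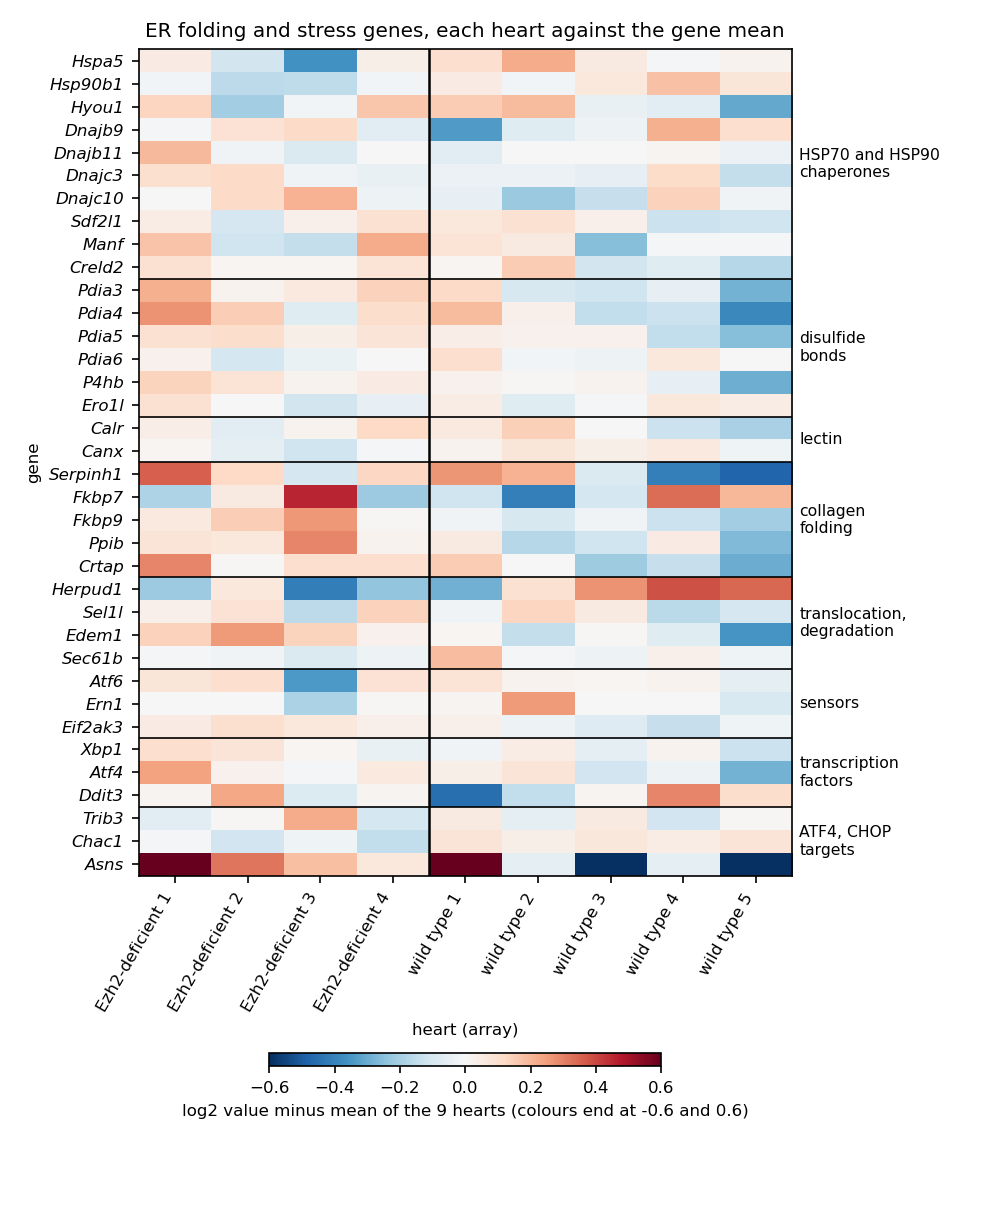
Each cell is the log2 value of 1 gene (rows, grouped by role) in 1 heart (columns, Ezh2-deficient left of the line, wild type right of it) minus the gene's mean over the 9 hearts; colours end at -0.6 and 0.6. The widest spread is that of Asns, and Serpinh1, Fkbp7 and Herpud1 vary by heart within both groups.

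The targeted gene and the tissue were checked first. Ezh2 averaged 8.88 ± 0.11 in Ezh2-deficient and 8.73 ± 0.12 in wild-type hearts (SD, n = 4 and 5; limma adjusted p = 0.485), and since the place of its probes in the transcript is not given, this does not check the genotype labels. Cardiomyocyte markers had a mean level of 13.53 to 13.73 in Ezh2-deficient and 13.70 to 13.78 in wild-type hearts, and no value in the table is 0. On the first principal component of all probe sets wild-type arrays 4 and 5 stood away from the rest, and on the second Ezh2-deficient array 3 did. In Ezh2-deficient array 3 the erythroid markers stood at 1.23 above their mean of 9 hearts. The sample titles carry a letter, e (2 Ezh2-deficient and 2 wild-type hearts) or x (2 and 3), whose meaning the labels do not give. Differences by letter are also given for the genes shown heart by heart. They are given as well for the collagen, cell marker, stress signalling and amino acid response lists. The 3 hearts with low Y-linked values, Ezh2-deficient arrays 1 and 3 and wild-type array 4, were taken as those of females, since the labels give no sex.

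Among the HSP70 and HSP90 chaperones of the lumen and their helpers, the means differed in both directions. Of the 10 genes 8 had a higher mean in Ezh2-deficient hearts, and the median difference was 0.05; Hspa5 and Hsp90b1, the chaperones themselves, were the 2 with a lower mean. Hspa5 read 12.26, 12.10, 11.85 and 12.24 in the Ezh2-deficient hearts, against 12.31, 12.43, 12.27, 12.20 and 12.23 in the wild-type hearts. All Ezh2-deficient hearts lay at or below 12.26, 2 of them inside the wild-type range, and array 3 lay lowest of all 9. The difference was -0.17 on the log2 scale (SE 0.09, limma adjusted p = 0.519), and the 95% interval of the fold, 0.774 to 1.01, just included 1. The log2 difference was -0.12 in the e arrays and -0.26 in the x arrays. Without Ezh2-deficient array 3 the difference was -0.09. Hsp90b1 read 12.21, 12.06, 12.07 and 12.21 in the Ezh2-deficient hearts, against 12.27, 12.21, 12.29, 12.40 and 12.29 in the wild-type hearts. This gene encodes GRP94, the HSP90 of the ER, and its groups touched only at wild-type array 2. The difference was -0.15 on the log2 scale (SE 0.05, limma adjusted p = 0.348); it was -0.03 within title letter e and -0.26 in the x arrays.

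For each of the 8 helpers and related genes the 95% interval of the difference included 0. The J-domain proteins Dnajb9, Dnajb11, Dnajc3 and Dnajc10, which bring clients to BiP, differed by 0.06, 0.04, 0.07 and 0.13, with standard errors of 0.10, 0.06, 0.06 and 0.08. Hyou1, which exchanges the nucleotide of BiP, differed by 0.03 (SE 0.11). The stress-inducible genes Sdf2l1, Manf and Creld2 differed by 0.03, 0.06 and 0.09. All 3 are known as sensitive readouts of ER stress, and the upper ends of their 95% intervals were 1.13-fold, 1.21-fold and 1.18-fold. The limma adjusted p of the 10 chaperone genes was 0.348 to 0.945.

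**Figure D3:**
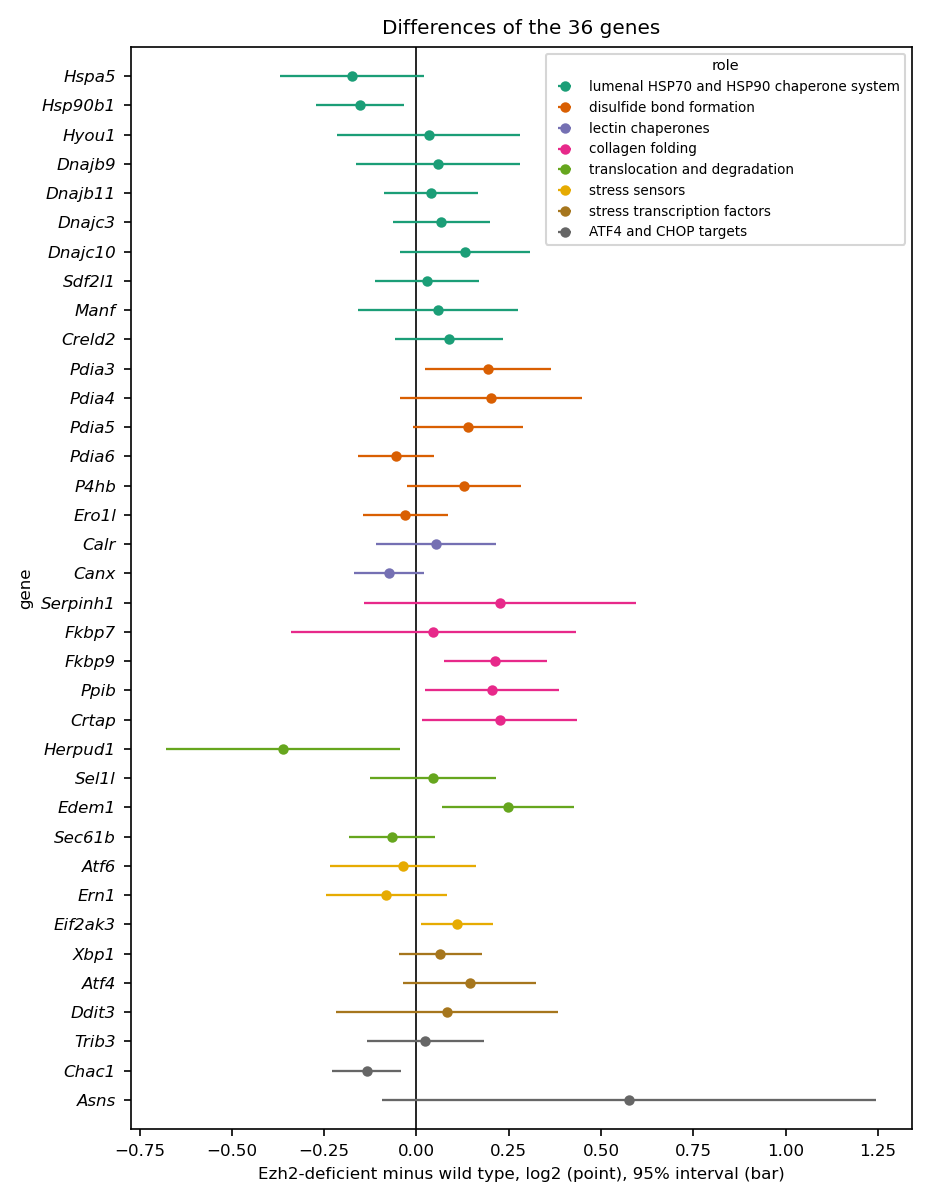
Log2 difference of each of the 36 genes (Ezh2-deficient minus wild type) with its 95% interval from limma (bars), coloured by role. The intervals of 9 genes exclude 0 before adjustment for the number of probe sets tested, and that of Asns is the widest.

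Of the 6 genes of disulfide bond formation 4 had a higher mean in Ezh2-deficient hearts. These enzymes form and reshuffle disulfide bonds in new proteins. The differences were 0.19 for Pdia3, 0.20 for Pdia4, 0.14 for Pdia5, 0.13 for P4hb and -0.05 for Pdia6, and 0 of the 6 genes of this role passed. Pdia3 read 11.79, 11.60, 11.64 and 11.71 in the Ezh2-deficient hearts, against 11.69, 11.48, 11.46, 11.53 and 11.30 in the wild-type hearts. Wild-type array 1 lay inside the Ezh2-deficient range and the other wild-type hearts below it, with wild-type array 5 the lowest. The difference was 0.19 on the log2 scale (SE 0.08, limma adjusted p = 0.407), with 0.17 in the e arrays and 0.19 in the x arrays. Pdia5 read 8.22, 8.23, 8.16 and 8.21 in the Ezh2-deficient hearts, against 8.17, 8.15, 8.15, 7.98 and 7.87 in the wild-type hearts. All 4 Ezh2-deficient hearts lay at or above 8.16, a level that wild-type array 1 also reached. The difference was 0.14 on the log2 scale (SE 0.07, limma adjusted p = 0.497), or 0.05 in the e arrays, 0.20 in the x arrays and 0.05 with wild-type arrays 4 and 5 left out. P4hb is both an isomerase and a subunit of the enzyme that hydroxylates collagen prolines; its difference of 0.13 became 0.05 without those arrays. Ero1l, the oxidase that recharges the isomerases, differed by -0.03 (SE 0.05). A further probe set for Pdia4 had a mean of 6.14 over the 9 arrays and a difference of -0.01, against 9.51 for the probe set used.

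The lectin chaperones calreticulin and calnexin, which hold sugar-bearing proteins until they are folded, showed small differences of opposite sign. Calr read 11.50, 11.40, 11.48 and 11.58 in the Ezh2-deficient hearts, against 11.52, 11.60, 11.47, 11.33 and 11.27 in the wild-type hearts. Wild-type arrays 4 and 5 were lowest and the other 7 hearts overlapped. The difference was 0.05 (SE 0.07, limma adjusted p = 0.834), or -0.02 in the e arrays, 0.08 in the x arrays and -0.04 with wild-type arrays 4 and 5 left out. Canx, with a pooled SD of 0.0475, differed by -0.08 (95% interval -0.17 to 0.02).

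The genes that fold collagen were the role with the highest median difference among those of more than 3 genes. All 5 measured genes had a higher mean in Ezh2-deficient hearts (48.4% of all genes did), with a median of 0.21 against 0.05 for the other 31 genes. Of the 5, 0 passed and 3 had an unadjusted p under 0.05 (11.5% of all genes). Fkbp9 read 9.95, 10.04, 10.15 and 9.90 in the Ezh2-deficient hearts, against 9.87, 9.79, 9.87, 9.76 and 9.68 in the wild-type hearts. Fkbp9 is a prolyl isomerase of the ER lumen, and every Ezh2-deficient heart lay above every wild-type heart. The difference was 0.21 on the log2 scale (SE 0.06, limma adjusted p = 0.271), a fold of 1.16 (95% interval 1.05 to 1.28). Ppib read 10.97, 10.96, 11.19 and 10.92 in the Ezh2-deficient hearts, against 10.95, 10.72, 10.78, 10.94 and 10.63 in the wild-type hearts. Ppib encodes cyclophilin B, a prolyl isomerase that acts on procollagen, and wild-type arrays 1 and 4 lay within the Ezh2-deficient range while the other 3 lay below it. The difference was 0.20 on the log2 scale (SE 0.08, limma adjusted p = 0.41). Crtap read 9.17, 8.88, 8.97 and 8.97 in the Ezh2-deficient hearts, against 9.02, 8.87, 8.66, 8.73 and 8.58 in the wild-type hearts. Crtap, a partner of the prolyl 3-hydroxylase P3h1, was highest in Ezh2-deficient array 1, and wild-type array 1 exceeded 3 of the 4 Ezh2-deficient hearts. The difference was 0.23 on the log2 scale (SE 0.09, limma adjusted p = 0.431). Among the e arrays the differences of Fkbp9, Ppib and Crtap were 0.09, 0.11 and 0.12, and in the x arrays they were 0.32, 0.29 and 0.27.

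Serpinh1 and Fkbp7 varied more between hearts of a group than between the groups, and in different hearts. Serpinh1 encodes HSP47, the chaperone dedicated to procollagen. Serpinh1 read 9.88, 9.64, 9.42 and 9.64 in the Ezh2-deficient hearts, against 9.78, 9.72, 9.43, 9.11 and 9.04 in the wild-type hearts. The 2 lowest values were those of wild-type arrays 4 and 5, and wild-type arrays 1 and 2 lay above 3 of the 4 Ezh2-deficient hearts. The difference was 0.23 on the log2 scale (SE 0.17, limma adjusted p = 0.656); it was 0.004 in the e arrays, 0.34 in the x arrays and -0.003 without wild-type arrays 4 and 5. Fkbp7 read 9.69, 9.93, 10.33 and 9.65 in the Ezh2-deficient hearts, against 9.75, 9.46, 9.77, 10.21 and 10.07 in the wild-type hearts. The 3 highest Fkbp7 values belonged to Ezh2-deficient array 3 and wild-type arrays 4 and 5, the arrays that lay apart, in 2 of which Serpinh1 was lowest. The difference was 0.05 on the log2 scale (SE 0.17, limma adjusted p = 0.953). Within groups, the pooled SD was 0.29 for Serpinh1 and 0.30 for Fkbp7, larger than that of 97.1% and 97.5% of all genes.

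**Figure D4:**
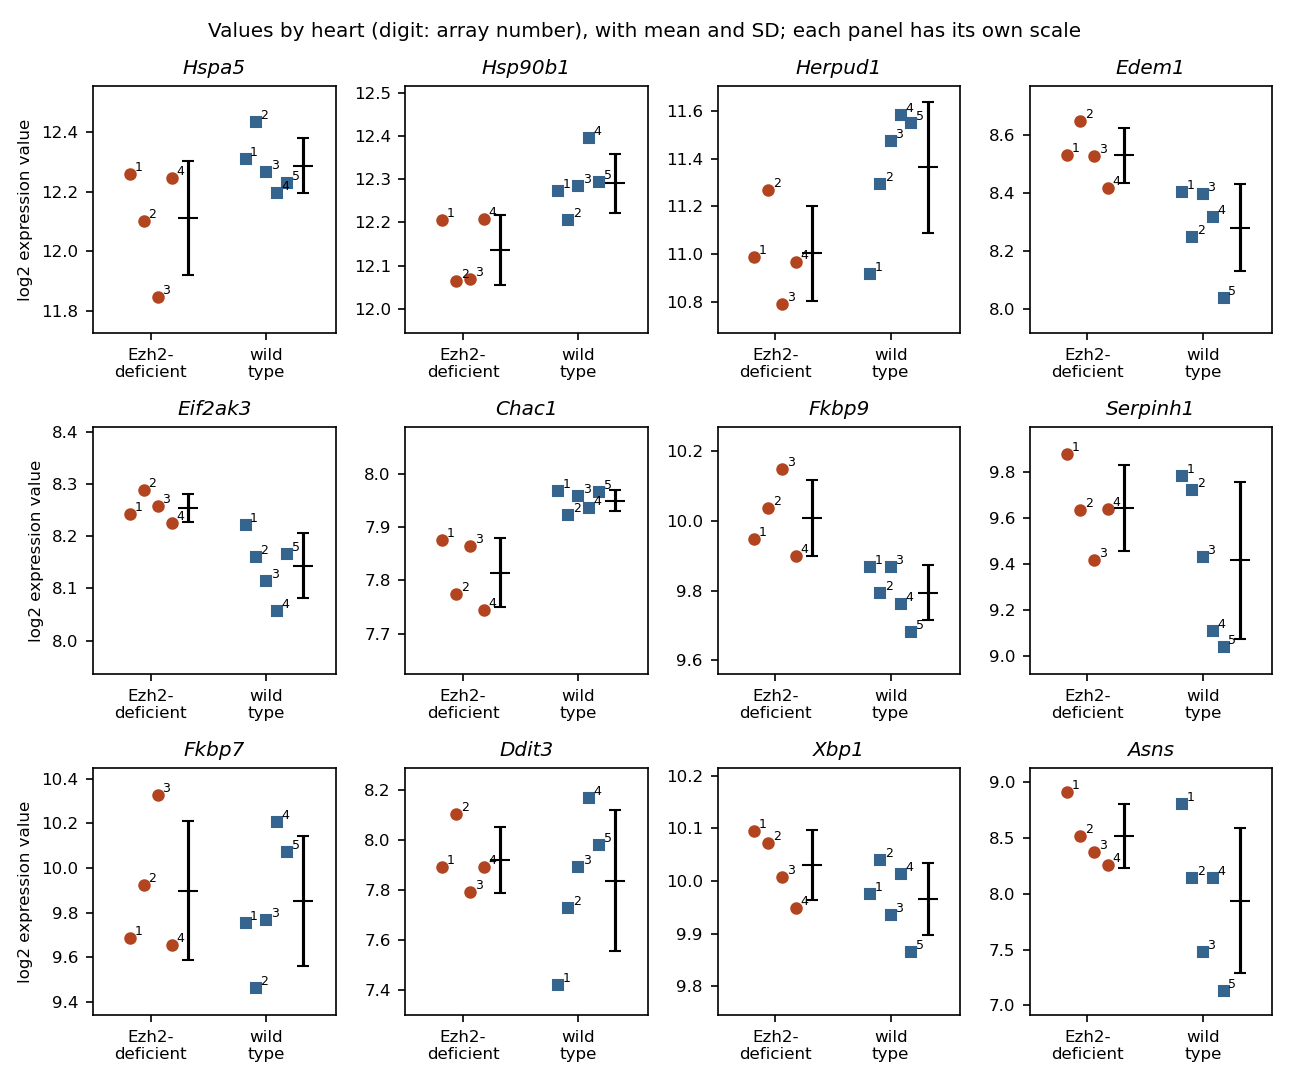
Log2 values of 12 genes in each heart (digits are array numbers), Ezh2-deficient left and wild type right, with the mean and SD of each group; each panel has its own scale. The groups do not overlap for Fkbp9, Edem1, Eif2ak3 and Chac1, and wild-type arrays 4 and 5 are lowest for Serpinh1.

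The clients of these chaperones and the markers of the cells that make them differed in the same direction. Of 18 collagen chains 17 had a higher mean in Ezh2-deficient hearts (48.4% of all genes did), with a median difference of 0.50. Of these chains 0 passed, and 13 had an unadjusted p under 0.05 (11.5% of all genes). The 3 chains with the smallest p, Col8a1, Col14a1 and Col5a2, differed by 1.03, 0.98 and 0.64 (limma adjusted p = 0.0501, 0.118 and 0.213). Col8a1 thus lay just above the threshold, and for all 3 every Ezh2-deficient heart lay above every wild-type heart. They were named for their small p. Over the 18 chains 5 were apart in this way, against 2.1% of all genes. Col1a1, Col1a2 and Col3a1, the main fibrillar chains, differed by 0.84, 0.80 and 0.81 (limma adjusted p = 0.291, 0.311 and 0.326). The median over the chains was 0.24 in the e arrays, 0.64 in the x arrays and 0.24 with wild-type arrays 4 and 5 left out, and the Col1a1 difference was 0.45 with those arrays left out. As means over the list minus the mean of 9 hearts, the collagen chains stood at 0.47, 0.23, 0.19 and 0.30 in the Ezh2-deficient hearts and at 0.18, 0.01, -0.15, -0.56 and -0.66 in the wild-type hearts. The 5 collagen folding genes stood at 0.12, 0.08, 0.20 and 0.01 in the Ezh2-deficient hearts and at 0.07, -0.09, -0.11, -0.06 and -0.21 in the wild-type hearts. Both sets were lowest in wild-type array 5, while array 4 was low for the chains and near the mean for the folding genes. All 10 fibroblast markers had a higher mean (median difference 0.34), and 6 had an unadjusted p under 0.05, against 11.5% of all genes. Their mean level was 10.58 to 10.96 in Ezh2-deficient hearts and 10.12 to 10.56 in wild-type hearts. The fibroblast median was 0.12 in the e arrays, where 8 of 10 had a higher mean, and 0.58 in the x arrays. All 10 endothelial markers also had a higher mean (median difference 0.27, levels 10.37 to 10.48 in Ezh2-deficient hearts and 9.80 to 10.40 in wild-type hearts). The endothelial median was 0.14 in the e arrays, 0.32 in the x arrays and 0.04 with wild-type arrays 4 and 5 left out, where 8 of 10 had a higher mean. The 5 atrial muscle markers varied widely by heart, at -0.68, 0.97, -0.35 and 0.39 in the Ezh2-deficient hearts and 0.55, 0.34, -1.54, 0.21 and 0.09 in the wild-type hearts as list means minus the mean of 9 hearts. Their median difference was 0.07 over all hearts, -0.79 in the e arrays and 0.90 in the x arrays. The part of the cell types in the differences of the folding genes was not tested.

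**Figure D5:**
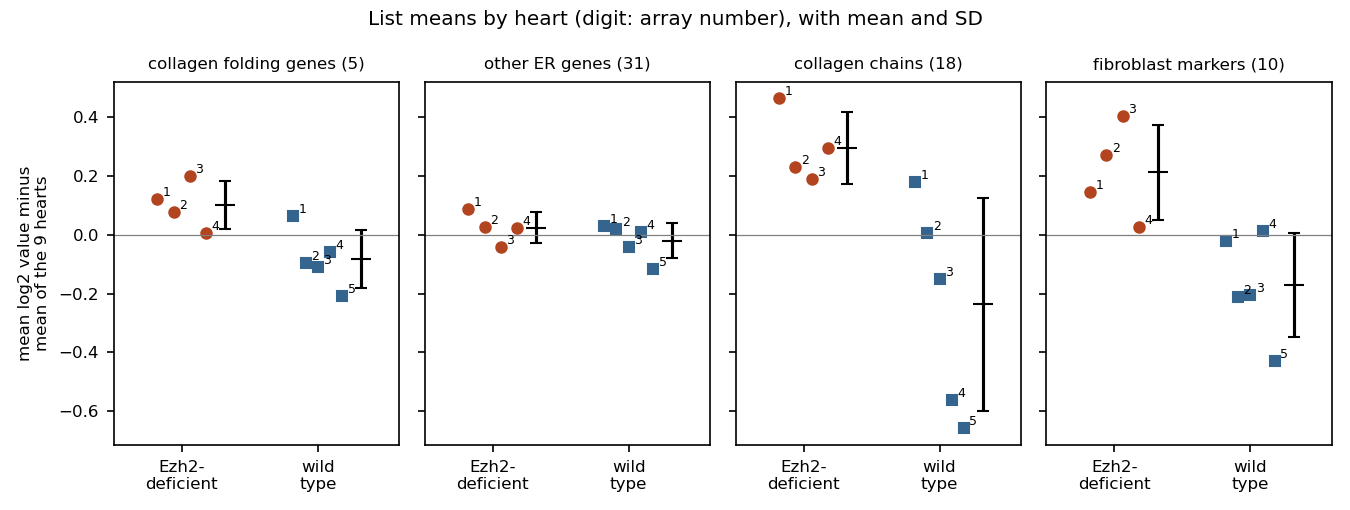
Mean of each list in each heart, in log2 units relative to the mean of the 9 hearts (digits are array numbers), with group mean and SD. The other 31 ER genes stay between -0.12 and 0.09, whereas the collagen chains spread from -0.66 to 0.47 and are lowest in wild-type arrays 4 and 5.

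Genes of ER import and degradation differed in both directions. Herpud1 encodes a membrane protein of the degradation machinery and is known as one of the most inducible genes of the stress response. Herpud1 read 10.99, 11.27, 10.79 and 10.97 in the Ezh2-deficient hearts, against 10.92, 11.30, 11.47, 11.59 and 11.55 in the wild-type hearts. Of the 5 wild-type hearts 4 were above all Ezh2-deficient hearts, and wild-type array 1 was below 3 of them. The difference was -0.36 on the log2 scale (SE 0.14, limma adjusted p = 0.403), a fold of 0.778 (95% interval 0.625 to 0.97); it was -0.13 in the e arrays, -0.51 in the x arrays and -0.23 without wild-type arrays 4 and 5. Edem1 directs misfolded glycoproteins to degradation. Edem1 read 8.53, 8.65, 8.53 and 8.41 in the Ezh2-deficient hearts, against 8.40, 8.25, 8.40, 8.32 and 8.04 in the wild-type hearts. Each Ezh2-deficient heart lay above every wild-type heart, by a margin of 0.01 between the nearest hearts. The difference was 0.25 on the log2 scale (SE 0.08, limma adjusted p = 0.316), with 0.15 in the e arrays and 0.34 in the x arrays. Sel1l, which holds the degradation ubiquitin ligase together, differed by 0.04 (SE 0.08), and Sec61b, a subunit of the import channel, by -0.07 (SE 0.05). The 2 further Sec61b probe sets, which were dimmer, differed by -0.04 and -0.006.

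The mRNAs of the sensors were close between groups, and that of PERK showed the smallest spread of the 3. Eif2ak3 read 8.24, 8.29, 8.26 and 8.22 in the Ezh2-deficient hearts, against 8.22, 8.16, 8.12, 8.06 and 8.17 in the wild-type hearts. The 4 Ezh2-deficient hearts lay close together, the lowest of them just above wild-type array 1. The difference was 0.11 on the log2 scale (SE 0.04, limma adjusted p = 0.407), a fold of 1.08; it was 0.04 in the e arrays and 0.16 in the x arrays. Ern1 read 7.72, 7.72, 7.53 and 7.72 in the Ezh2-deficient hearts, against 7.73, 7.97, 7.72, 7.72 and 7.63 in the wild-type hearts. Of the 9 hearts 6 lay within 0.02 of each other, with Ezh2-deficient array 3 lowest and wild-type array 2 highest. The difference was -0.08 on the log2 scale (SE 0.07, limma adjusted p = 0.725), or -0.13 in the e arrays and -0.07 in the x arrays. Atf6 read 10.16, 10.19, 9.74 and 10.17 in the Ezh2-deficient hearts, against 10.17, 10.11, 10.10, 10.10 and 10.03 in the wild-type hearts. Ezh2-deficient array 3 was the lowest of all hearts and the other 8 lay between 10.03 and 10.19. The difference was -0.04 on the log2 scale (SE 0.09, limma adjusted p = 0.916), or 0.03 in the e arrays and -0.11 in the x arrays, and without Ezh2-deficient array 3 it was 0.07.

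The 3 stress transcription factors had slightly higher means, and each 95% interval included 0. Xbp1 read 10.10, 10.07, 10.01 and 9.95 in the Ezh2-deficient hearts, against 9.98, 10.04, 9.94, 10.01 and 9.87 in the wild-type hearts. The groups overlapped, and the value adds spliced and unspliced forms as far as the probes read both. The difference was 0.07 on the log2 scale (SE 0.05, limma adjusted p = 0.678), with a 95% interval of the fold of 0.967 to 1.13. The Xbp1 difference was 0.01 in the e arrays and 0.10 in the x arrays. Atf4 read 9.07, 8.86, 8.82 and 8.89 in the Ezh2-deficient hearts, against 8.87, 8.91, 8.72, 8.80 and 8.55 in the wild-type hearts. Ezh2-deficient array 1 was highest and wild-type array 5 lowest. The difference was 0.14 on the log2 scale (SE 0.08, limma adjusted p = 0.565), or 0.10 in the e arrays and 0.15 in the x arrays. Ddit3 read 7.89, 8.11, 7.79 and 7.89 in the Ezh2-deficient hearts, against 7.42, 7.73, 7.89, 8.17 and 7.98 in the wild-type hearts. Wild-type hearts alone spanned both the lowest and the highest value of this gene, which encodes CHOP. The difference was 0.08 on the log2 scale (SE 0.13, limma adjusted p = 0.861); it was 0.32 in the e arrays and -0.06 in the x arrays.

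The 3 targets of ATF4 and CHOP went different ways. Chac1, which degrades glutathione and is known to follow ATF4 closely, had the lower mean. Chac1 read 7.88, 7.77, 7.86 and 7.74 in the Ezh2-deficient hearts, against 7.97, 7.92, 7.96, 7.93 and 7.96 in the wild-type hearts. Every Ezh2-deficient heart lay below every wild-type heart, and the differences in the e and the x arrays were alike, -0.14 and -0.13. The difference was -0.14 on the log2 scale (SE 0.04, limma adjusted p = 0.3), a fold of 0.91 (95% interval 0.853 to 0.971). Asns read 8.91, 8.52, 8.37 and 8.26 in the Ezh2-deficient hearts, against 8.80, 8.14, 7.48, 8.14 and 7.13 in the wild-type hearts. Asns, asparagine synthetase, spanned 1.68 log2 units among wild-type hearts, more than its difference between groups, and wild-type array 1 exceeded 3 of the 4 Ezh2-deficient hearts. The difference was 0.58 on the log2 scale (SE 0.30, limma adjusted p = 0.533), and its pooled SD of 0.527 was larger than that of 99.6% of all genes. The Asns difference was 0.11 in the e arrays and 0.86 in the x arrays, 0.37 with wild-type arrays 4 and 5 left out, and 0.37 to 0.79 with 1 array left out at a time. Trib3, a pseudokinase induced by CHOP, differed by 0.02 (SE 0.07).

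The differences were also set against the promoters, as a description, and the contrast was not tested. The 7 ERSE genes (Hspa5, Hsp90b1, Dnajc3, Creld2, Pdia6, Calr and Canx) had a median difference of -0.06 and a range of -0.17 to 0.09, and 3 of them had a higher mean. The 26 genes whose promoter window lacks these letters had a median of 0.10 and a range of -0.36 to 0.58, and 21 of them had a higher mean. The 26 include the 2 ERSE-II genes, the measured collagen folding genes and Asns, so the sets also differ in role. Only exact matches at the first listed start were counted. Of the 2 ERSE-II genes, Herpud1 differed by -0.36 and Dnajb11 by 0.04. The 4 CARE genes Asns, Trib3, Chac1 and Herpud1 differed by 0.58, 0.02, -0.14 and -0.36, in both directions.

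Related genes outside the set were also tested, and 0 of them passed. Over all genes 48.4% had a higher mean, and 5.77% were higher and 5.78% lower at an unadjusted p under 0.05. Of 30 further ER quality control genes 22 had a higher mean, with a median difference of 0.03; 0 passed, and 4 higher and 1 lower had an unadjusted p under 0.05. Tmx1, a membrane-bound thioredoxin of the ER, differed by -0.58 (SE 0.11, limma adjusted p = 0.128). Txndc5, a disulfide isomerase family member, differed by 0.48 (SE 0.10) and Kdelr3, a receptor that returns escaped ER proteins, by 0.56 (SE 0.14). Tmx1 lay lower and Txndc5 higher in every Ezh2-deficient heart than in any wild-type heart, and both were named for their small p. Over the 30 genes the groups were apart for 2 higher and 1 lower, against 2.1% and 2.19% of all genes. Of 18 further stress signalling genes 15 had a higher mean (4 higher and 0 lower at an unadjusted p under 0.05). Their median was 0.11, or 0.05 in the e arrays, 0.13 in the x arrays and 0.04 without wild-type arrays 4 and 5. Among the 18 genes the stress-inducible Nupr1 differed by 0.29 and the membrane-bound transcription factor gene Creb3l2 by 0.29. Ppp1r15a, which reverses PERK signalling, differed by 0.23. These were named for their small p, and the differences over the list ranged from -0.06 to 0.79. Of 19 amino acid response genes, the wider targets of ATF4, 14 had a higher mean (3 higher and 2 lower at an unadjusted p under 0.05). Their median was 0.05, or -0.01 in the e arrays, where 9 had a higher mean, and 0.06 in the x arrays. The amino acid transporter Slc7a5 differed by 0.32, the proline synthesis enzyme Aldh18a1 by 0.34 and the lipoprotein receptor Vldlr by -0.22. Of 27 translocon, signal peptidase and glycosylation genes 14 had a higher mean (median 0.03; 2 higher and 1 lower at that level), with 0.18 for Ssr1, 0.27 for Sec61a1 and -0.16 for Magt1. 

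Other genes that modify collagen were also mostly higher, with 14 of 16 higher means (48.4% over all genes). Their median was 0.18 (0.08 in the e arrays, 0.24 in the x arrays, 0.07 with wild-type arrays 4 and 5 left out). Of the 16, 0 passed, and 6 higher and 1 lower had an unadjusted p under 0.05 (5.77% and 5.78% of all genes). The prolyl 3-hydroxylase genes P3h2 and P3h3 (listed as Leprel1 and Leprel2) differed by 0.48 and 0.18, and P3h4 (listed as Leprel4), a relative without that activity, by -0.33 (SE 0.07, limma adjusted p = 0.13). These 3 were named for their small p, and for all 3 the groups did not overlap. Over the 16 genes the groups were apart for 2 higher and 1 lower, against 2.1% and 2.19% of all genes.

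The title letters split the arrays into subsets that share no heart. Of the 36 genes, 19 were higher and 8 lower in Ezh2-deficient hearts within both letters and 9 had opposite signs, so that 75% kept 1 sign, against 54.7% of all genes. The genes were chosen with earlier results of these data known, so this share is not an independent check. The difference was larger in size in the x arrays for 29 of the 36 (80.6%), as for 62.9% of all genes. The median over the 5 collagen folding genes was 0.09 in the e arrays and 0.29 in the x arrays, and that over the other 31 was 0.03 and 0.03. Without wild-type arrays 4 and 5, which are both of letter x, 20 of the 36 had a higher mean, and without Ezh2-deficient array 3 as well 24 did, a setting added after seeing the data.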

How the data were processed

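Affymetrix arrays measured RNA from 9 hearts, labelled with biotin per the labels. The deposited table holds log2 values that the authors computed by RMA in Affymetrix Power Tools, per the submitters' processing notes. Versions and settings were not given in the sources used here. The log2 scale was read from the range, 2.18 to 15.02, and the name of the method. RMA as commonly run sets arrays to 1 distribution, so a shift of all genes would be removed, and array medians lay between 7.19 and 7.25. The table has 28815 probe sets, 0 other columns of per-sample values and no detection calls. Names come from the platform annotation: 21780 probe sets had 1 symbol, 1605 several and 5430 none, and probe sets of the last 2 kinds stayed in the test without a name. The number of arrays limits the precision, and the median standard error was 0.0674 per difference.

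Groups came from the description label, and replicates were numbered in sample order, which pairs nothing. The labels speak of separate mice. Differences are Ezh2-deficient minus wild type, tested with limma 3.58.1 (lmFit and eBayes, R 4.3.3) on the 9 arrays, with genotype alone in the model. P-values are two-sided, with Benjamini-Hochberg adjustment over the 28815 probe sets and a threshold of 0.05. The fit was tested on simulated data. Exact two-sided permutation of the group labels served as an alternative. Genes given heart by heart were the 12 with the smallest unadjusted p and Hspa5, Hsp90b1, Calr, Xbp1, Atf4, Atf6, Ern1, Eif2ak3, Ddit3, Serpinh1, Ppib and Crtap; Fkbp7 was added after its values were seen. From each related list up to 3 genes with the smallest p were taken. The members, lists, roles and tests were chosen with earlier results of these data known, and ERSE-II was added after the promoters were searched. For a gene with several annotated starts the first in the table was used. Protein sequences were not used here. Other lists gave medians of 0.08 (13 cytosolic and mitochondrial heat shock genes) and 0.18 (9 macrophage). Further medians were 0.14 (8 smooth muscle and pericyte), 0.17 (6 B and plasma cell), 0.07 (5 atrial), 0.37 (3 erythroid) and -0.07 (10 cardiomyocyte markers). Alternatives were a further quantile normalization, centring, a filter on dim probe sets, the title letter, Y-linked genes as a covariate, array weights, trended robust variance, arrays left out, and the mean of a gene's probe sets.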

Additional observations from a re-analysis of the deposited data

Results flagged for a closer look

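Within each group, every gene was checked for a heart far from the others, and in 5 of 72 sets of values the gap to the nearest heart, as a share of the group's range, passed the limit of Dixon's test; chance gives about 1 in 20. Manf read 8.25 in wild-type array 3, below the other hearts of that group at 8.50 to 8.59 (share 0.74). P4hb read 10.81 in wild-type array 5, below the other hearts of that group at 11.06 to 11.13 (share 0.759). Sec61b read 8.88 in wild-type array 1, above the other hearts of that group at 8.66 to 8.72 (share 0.721). Atf6 read 9.74 in Ezh2-deficient array 3, below the other hearts of that group at 10.16 to 10.19 (share 0.93). Ern1 read 7.53 in Ezh2-deficient array 3, below the other hearts of that group at 7.717 to 7.724 (share 0.964). Ezh2-deficient arrays 1 and 2 and wild-type arrays 3 and 4 all read 7.717 for Ern1, and such ties raise the share. Both Ezh2-deficient values belong to the array with the highest erythroid markers (1.23 above their mean of 9 hearts, against -0.13 to -0.03 in the other 3 Ezh2-deficient hearts), and the part of blood in them was not tested.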

How the results depend on the processing

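Of the 36 genes 0 passed limma under any of the 20 alternatives in which the count was made, while the count of all probe sets that passed, 10 in the fit as reported, was 17 with centring, 17 with dim probe sets left out, 17 with the title letter as a block, 37 with array weights, 3 with Y-linked genes as a covariate, 0 in the e arrays, 0 in the x arrays, 5 without wild-type arrays 4 and 5, 6 without those and Ezh2-deficient array 3, and 3 to 15 with 1 array left out, at 5 or fewer without wild-type array 2, 3 or 4 or Ezh2-deficient array 1 or 2. The cause of these changes was not tested. The median difference of the collagen folding genes, 0.21, was 0.0925 in the e arrays and 0.12 without the 3 arrays that lay apart, and 0.16 to 0.24 with 1 array left out. The genes with an unadjusted p under 0.05, 9 as reported, numbered 1 in the e arrays, 5 with Y-linked genes as a covariate, 5 without wild-type arrays 4 and 5, 3 without the 3 arrays, and 4 to 12 with 1 array left out. The share of all genes at that level under these alternatives is not given here. Of 342 values of the 19 genes given by rule, under alternatives that refit the difference, 332 kept their direction. These refits reuse arrays of the main fit, and 12 of the 19 genes were taken for their small p in it. Most signs were therefore likely to hold beforehand, and the same count over all genes is not given here. The 10 that turned belonged to Calr (-0.0205 in the e arrays, -0.0397 without wild-type arrays 4 and 5, -0.037 without the 3 arrays), Atf6 (0.027 in the e arrays, 0.0326 with array weights, 0.0483 without the 3 arrays, -0.0775 to 0.0711 with 1 array left out), Ddit3 (-0.0632 in the x arrays, -0.0215 to 0.17 with 1 array left out) and Serpinh1 (-0.00292 without wild-type arrays 4 and 5). By exact permutation of single genes, without adjustment, 5 of the 19 were under 0.05: Fkbp9 and Chac1 at 0.00794, the smallest that the group sizes allow, Eif2ak3 at 0.0159, Edem1 at 0.0238 and Hsp90b1 at 0.0317. All 5 were among the 12 genes taken for their small limma p, so their number says nothing about the set. The share of all genes under this test is not given here. No paired analysis was possible because the replicate numbers only follow the order of the samples. Without detection calls, what dim probe sets limit could not be measured.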

Other observations

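The heat shock genes, which answer to heat shock factors rather than to the ER, varied by heart more than the ER chaperones. Most act in the cytosol, but the list also holds the mitochondrial Hspd1 and Hspe1. As the mean of 13 genes minus the mean of 9 hearts the list stood at 0.31, -0.03, -0.15 and 0.17 in the Ezh2-deficient hearts. In the wild-type hearts it stood at -0.03, 0.14, -0.16, -0.10 and -0.15. The 10 ER chaperone genes, taken the same way, stayed between -0.06 and 0.08 over the 9 hearts. The highest values, Ezh2-deficient arrays 1 and 4 and wild-type array 2, are of title letter e. Hspb1 differed by 0.32 (SE 0.11, limma adjusted p = 0.334), the cytosolic HSP90 gene Hsp90aa1 by 0.30 (SE 0.12) and the mitochondrial chaperonin gene Hspd1, which also answers to heat shock, by -0.21 (SE 0.06). For Hspd1 every Ezh2-deficient heart lay below every wild-type heart (2.19% of all genes), and these genes were named for their small p. Of the 13 genes 0 passed limma, and 2 higher and 1 lower had an unadjusted p under 0.05 (5.77% and 5.78% of all genes).

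Among wild-type hearts, array 1 had the lowest Ddit3 (7.42) and the lowest Dnajb9 (8.81) and also the highest Asns (8.80), while array 4 had the highest Ddit3 (8.17) and the highest Dnajb9 (9.36). These hearts were picked after their values were seen. The 2 probe sets that carry Dnajc3 alone were identical in every digit kept, with a difference of 0.0674, a standard error of 0.05895 and a mean of 10.18056. They are therefore not counted as separate readings.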
